A study of Mus musculus with 15 samples.

Results

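Expression of 10 genes of the brain vasculature and of the response to low oxygen was followed across 15 libraries of the mouse brain. They were listed by name, with no threshold on their values, and are Vegfa, Flt1, Kdr, Tek, Pecam1, Cldn5, Slc2a1, Angpt1, Angpt2 and Hif1a, that is 10 of the 26628 genes in the table. The libraries came from whole cerebellum (Ce) or whole striatum (St) of male Hsd:ICR mice, an outbred stock, given as 6 weeks old in the labels. The mice belonged to a line bred for high voluntary running (Hi) or to an unselected control line (Co). The 4 groups were CeCo (n = 4), CeHi (n = 4), StCo (n = 4) and StHi (n = 3, the authors having removed 1 sample). Every mouse, controls included, had lived with a running wheel, and tissue was collected on day 7. By the authors' measurements Hi mice ran more and faster than Co mice before dissection, so line and amount of running cannot be told apart. Each line was 1 breeding line, so selection and chance divergence of the lines cannot be told apart, and each library was a homogenate of a whole region.

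Endothelial cells line the vessels, and in the brain they seal them into the blood-brain barrier. Vascular endothelial growth factor A, encoded by Vegfa, is released by neurons and glia and binds the receptors encoded by Kdr, the main signalling receptor, and Flt1, which largely acts as a decoy. Angiopoietin 1 (Angpt1) activates the endothelial receptor Tie2 (Tek) and stabilizes vessels, whereas angiopoietin 2 (Angpt2) mostly opposes it. Pecam1 is an adhesion molecule of endothelial junctions, Cldn5 the principal tight junction claudin of the barrier, and Slc2a1 the glucose transporter of barrier endothelium, also present in glia. Hif1a encodes the oxygen-regulated subunit of hypoxia-inducible factor 1, which binds the hypoxia response element of targets such as Vegfa and Slc2a1 and is controlled mainly through protein stability.

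The hypoxia response element has the core ACGTG or GCGTG. This core was searched on both strands in RefSeq windows of 300 bases, from 250 bases before to 50 bases after each annotated start (GRCm38.p6), and overlapping matches were counted as 1 stretch. Windows were found for 7 of the 10 genes, and 5 of the 7 held the core in at least 1 window. Among 32851 promoters of the same length, 43.8% held it, a share per window and not per gene, and Vegfa had 2 windows. The Slc2a1 and Hif1a windows held 2 stretches each, as did the Kdr window, and the Flt1 window held 1. The window at the outer Vegfa start held 0 and that at a second start inside the gene held 2, and the Tek and Cldn5 windows held 0. Vegfa thus counted among the 5 only through the window inside the gene. Bases farther than 250 before a start were not searched in any gene. Pecam1, Angpt1 and Angpt2 had no window. The 250 bases before the start of a glucose transporter, of the hypoxia factor and of its best known target are shown so that these letters can be read, 5′ to 3′ on the strand of each gene, with the core or its reverse complement in capitals. They lie at chr4:119108495-119108744 on the plus strand for Slc2a1, chr12:73907617-73907866 on the plus strand for Hif1a, where the RefSeq start lies inside the gene as GENCODE places it, and chr17:46032378-46032627 on the minus strand for Vegfa.
Slc2a1: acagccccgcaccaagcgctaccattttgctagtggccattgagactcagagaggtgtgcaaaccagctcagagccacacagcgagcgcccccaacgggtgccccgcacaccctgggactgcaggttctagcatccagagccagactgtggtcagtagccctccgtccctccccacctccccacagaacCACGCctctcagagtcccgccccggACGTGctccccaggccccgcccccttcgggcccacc
Hif1a: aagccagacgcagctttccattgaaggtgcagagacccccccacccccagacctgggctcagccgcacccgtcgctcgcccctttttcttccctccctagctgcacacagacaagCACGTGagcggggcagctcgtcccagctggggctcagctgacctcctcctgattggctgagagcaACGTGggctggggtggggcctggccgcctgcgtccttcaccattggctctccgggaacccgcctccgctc
Vegfa: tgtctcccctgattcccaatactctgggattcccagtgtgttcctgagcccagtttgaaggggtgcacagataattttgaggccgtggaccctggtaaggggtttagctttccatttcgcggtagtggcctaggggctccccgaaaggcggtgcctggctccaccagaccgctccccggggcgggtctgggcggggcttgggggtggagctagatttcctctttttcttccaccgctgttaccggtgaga

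Values are fragments per gene divided by a factor per library, here called normalized counts, with no division by length. Libraries held 32909267 to 47485516 fragments, and 1 fragment was worth 0.841 to 1.30 normalized counts. The sum of 8 cerebellar markers was 288436 to 340523 in Ce and 2038 to 3713 in St, and that of 8 striatal markers 168672 to 233951 in St and 8319 to 11668 in Ce, so every library carried the markers of its labelled region. All 8 markers of each list passed by region in that direction. By line, 1 of them passed, Cbln1, at 380 ± 70.3 in StCo and 538 ± 11.2 in StHi (limma adjusted P-value 0.0262), and it was lost with each region fitted alone (0.112) and without any 1 of the 3 StHi libraries. The sum of 8 choroid plexus markers varied between libraries of 1 group, from 1810 to 117675 in CeCo and from 1493 to 113952 in CeHi. In St it was 1438 to 3781, except for 18735 in StHi replicate 2. All 10 genes passed the filter on low values, with 45 to 136 fragments per library for Angpt2, 2786 to 13291 for Hif1a and 3255 to 6481 for Vegfa.

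Per kilobase of annotated exon, the 10 genes fell into a high tier of Hif1a, Vegfa, Slc2a1 and Cldn5 and a low tier of the receptors, the angiopoietins and Pecam1. The tiers depend on the length used, the union of all annotated exons, which was 13504 bases for Flt1 and 1416 for Cldn5. Before division by length, Flt1 (1662 normalized counts) was above Cldn5 (994) in CeCo. In CeCo, Hif1a had the highest level at 1805 ± 144 normalized counts per kilobase (SD, n = 4), followed by Vegfa at 1247 ± 106. Slc2a1 (865 ± 85.1) and Cldn5 (702 ± 86.4) came next and overlapped each other. Flt1, Angpt1, Pecam1 and Tek lay between 102 and 123 per kilobase, with neighbours in that order overlapping. Kdr (46.0 ± 7.33) and Angpt2 (27.7 ± 4.09) came last, each apart from the gene above it in every sample. The CeHi order differed only in that Angpt1 (147 ± 17.3) stood above Flt1 (123 ± 17.3), a pair that overlapped in both groups.

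In St the order was different at both ends. In StCo, Vegfa (889 ± 98.7 per kilobase), Slc2a1 (867 ± 56.0), Cldn5 (755 ± 87.7) and Hif1a (753 ± 22.0) formed a block in which each overlapped the next. Angpt1 (48.6 ± 8.14) lay below Kdr (58.9 ± 13.0), with overlap in StCo and without it in StHi (36.3 ± 1.64 against 62.1 ± 9.90). Angpt2 was again the lowest, at 15.2 ± 2.27 in StCo and 19.5 ± 3.10 in StHi.

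**Figure D1:**
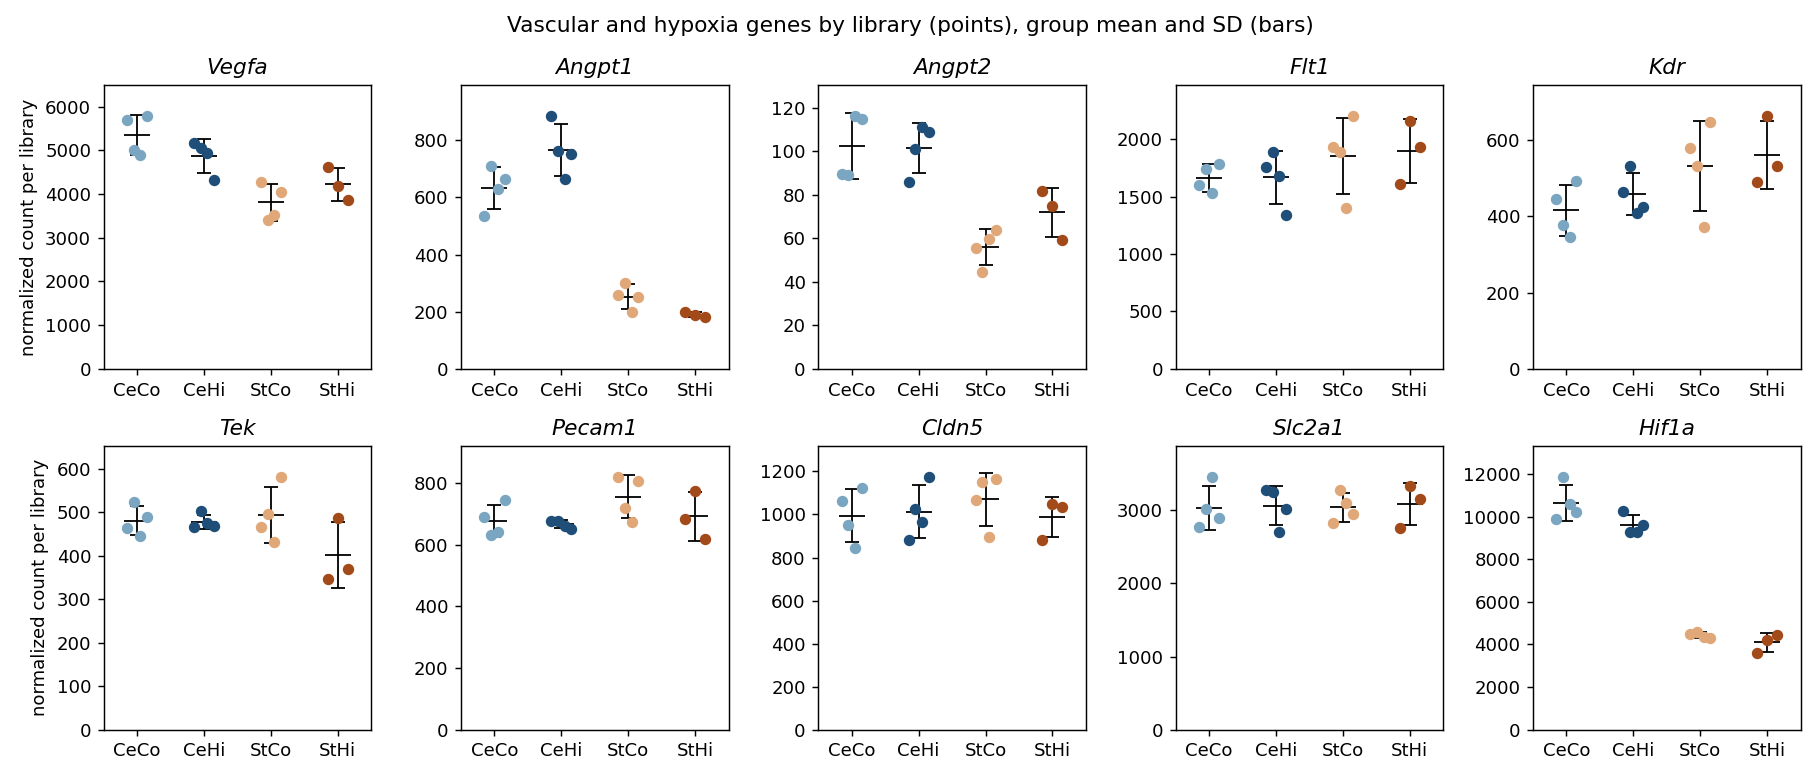
Normalized counts (linear axis from 0) of the 10 genes in each library, with points for libraries and bars for the group mean and SD, in CeCo, CeHi and StCo (n = 4 each) and StHi (n = 3). Angpt1, Angpt2 and Hif1a separate the regions, with every Ce library above every St library, while the points of Slc2a1 and Cldn5 lie in the same range in all 4 groups.

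The comparison of lines within each region asked which genes differed in mice bred for high running. At a limma adjusted P-value under 0.05, 0 of the 10 genes passed between CeHi and CeCo, between StHi and StCo, or for the line-by-region interaction (the line difference in St minus that in Ce), against 5.94%, 2.66% and 0.532% of the 15213 genes tested. At an unadjusted limma P-value under 0.05 there were 2 genes in each region (Angpt1 and Hif1a in Ce, Angpt1 and Tek in St) and 2 for the interaction (Angpt1 and Vegfa). The share of all tested genes under this unadjusted threshold was not counted, so no excess can be read from these numbers. The quasi-likelihood test of edgeR on recovered fragments also passed 0 of the 10 in all 3 comparisons, and DESeq2 passed 0 in Ce, 0 in St and 1, Angpt1, for the interaction. The 95% intervals of the fold changes, Hi over Co, ran from 0.784 at the lowest (Angpt2) to 1.43 at the highest (Angpt1) in Ce, and from 0.624 (Angpt1) to 1.65 (Angpt2) in St. The median log2 fold change of the 10 genes was -0.01 in Ce and -0.05 in St, and over all tested genes it was -0.00214 and -0.00464. The median absolute log2 fold change of the 10 genes was 0.0238 in Ce and 0.130 in St, against 0.0970 and 0.0845 over all tested genes.

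Among the ligands, Vegfa was at 5697, 5004, 4901 and 5772 normalized counts in CeCo and at 5163, 5055, 4928 and 4310 in CeHi. The lines overlapped, with a log2 fold change of -0.14 (SE 0.09, limma adjusted P-value 0.391). In St, Vegfa was at 4278, 3397, 3509 and 4048 in StCo and at 4614, 4187 and 3865 in StHi, again overlapping. The interaction log2 value of Vegfa was 0.29 (95% interval 0.02 to 0.55, limma adjusted P-value 0.463).

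Angpt1 had the largest line differences of the 10 genes in either region, and they had opposite signs. It was at 536, 710, 628 and 663 normalized counts in CeCo and at 883, 763, 664 and 751 in CeHi. The CeHi libraries lay mostly above the CeCo ones, with overlap, and the log2 fold change was 0.27 (SE 0.12, limma adjusted P-value 0.227). In St it was at 259, 302, 198.5 and 252 in StCo and at 198.5, 187 and 182 in StHi, so that the highest StHi library and the lowest StCo library were level to within the rounding used here. By the exact values the lines did not overlap for Angpt1 in St, as for 13.1% of all genes tested, and all 10 genes overlapped in Ce, where 13.3% of all genes did not. Its log2 fold change in St was -0.41 (SE 0.13, limma adjusted P-value 0.114), and the interaction log2 value was -0.67 (95% interval -1.04 to -0.30, limma adjusted P-value 0.113). The outcome depended on 1 StCo library and on the method. Without StCo replicate 2, the lowest of its group, the St difference was -0.52 (limma adjusted P-value 0.0222) and the interaction -0.79 (limma adjusted P-value 0.0264), and both then passed. Across all fits without 1 library, the St difference ran from -0.52 to -0.32, with limma adjusted P-values of 0.0222 to 0.323. The interaction ran from -0.79 to -0.585, with limma adjusted P-values of 0.0264 to 0.233. The interaction also passed with DESeq2 on recovered fragments (adjusted P-value 0.0228), and both passed with limma sample quality weights (adjusted P-values 0.0284 and 0.0336).

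Angpt2, at 89.5, 89.2, 116 and 115 normalized counts in CeCo and 85.8, 101, 111 and 109 in CeHi, gave a log2 fold change of -0.01 (SE 0.16, limma adjusted P-value 0.981). In St it was at 55.5, 44.5, 59.9 and 64.0 in StCo and at 81.7, 74.8 and 59.4 in StHi. Of the StHi libraries 2 lay above all of StCo and 1 inside its range, with a log2 fold change of 0.35 (SE 0.17, limma adjusted P-value 0.381).

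The receptors showed wide spread within St groups. Flt1 was at 1929, 1887, 1400 and 2197 normalized counts in StCo and at 1606, 2162 and 1927 in StHi, and its log2 fold change was 0.04 (95% interval -0.27 to 0.34). Kdr was at 578, 532, 371 and 648 in StCo and at 490, 661 and 531 in StHi, with a log2 fold change of 0.09 (95% interval -0.28 to 0.45). In both genes the lowest value of StCo was replicate 2 and the highest replicate 3. In Ce, Flt1 ranged over 1527 to 1779 in CeCo and 1340 to 1886 in CeHi, and Kdr over 346 to 492 and 409 to 533.

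Tek was at 465, 496, 433 and 580 normalized counts in StCo and at 346, 488 and 370.5 in StHi. Of the StHi libraries 2 lay below all of StCo and replicate 1 inside its range. The log2 fold change was -0.31 (SE 0.11, limma adjusted P-value 0.191), and without StHi replicate 1 it was -0.46 and passed (limma adjusted P-value 0.0378). Over all fits without 1 library it ran from -0.46 to -0.21, with limma adjusted P-values of 0.0378 to 0.481. In Ce the level of Tek was 480 ± 33.3 in CeCo and 478 ± 16.7 in CeHi (SD, n = 4 each), a log2 fold change of -0.01.

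The barrier and junction genes had overlapping lines in both regions. In the order CeCo and CeHi, then StCo and StHi, Pecam1 was at 679 ± 52.3, 667 ± 12.9, 756 ± 69.5 and 692 ± 79.0 normalized counts (SD). Cldn5 was at 994 ± 122, 1012 ± 123, 1070 ± 124 and 989 ± 94.0. Slc2a1 was at 3034 ± 298, 3066 ± 264, 3041 ± 196 and 3085 ± 292, with line log2 fold changes of 0.01 in each region and intervals of -0.16 to 0.18 in Ce and -0.17 to 0.20 in St.

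Hif1a was at 9905, 11849, 10591 and 10229 normalized counts in CeCo and at 10267, 9290, 9283 and 9586 in CeHi. Its log2 fold change was -0.15 (SE 0.07, limma adjusted P-value 0.208). In St it was at 4499, 4589, 4345 and 4314 in StCo and at 3614, 4231 and 4450 in StHi, with a log2 fold change of -0.13 (SE 0.07, limma adjusted P-value 0.471). The lines overlapped in both regions.

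**Figure D2:**
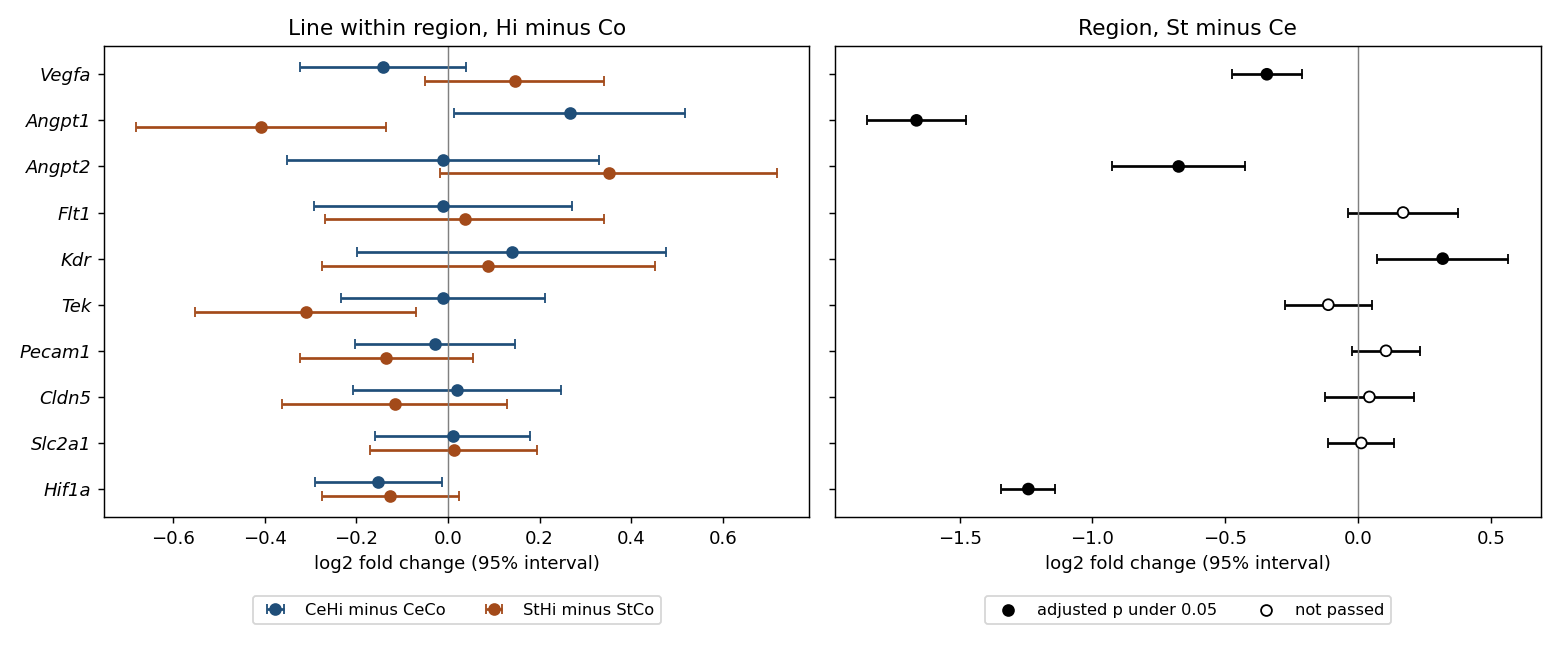
Log2 fold changes with 95% intervals from limma, on the left Hi minus Co within Ce and within St, on the right St minus Ce with filled points for an adjusted P-value under 0.05. Angpt1 has intervals on opposite sides of 0 in Ce and St, though neither passed after adjustment, and on the right Angpt1 (-1.66) and Hif1a (-1.24) lie far from the other genes.

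The comparison of regions asked how the vasculature of Ce and St differs in these genes. Angpt1, Hif1a, Angpt2 and Vegfa were lower in St and Kdr was higher, while Flt1, Tek, Pecam1, Cldn5 and Slc2a1 did not pass. The regions differed in most genes of the table, 80.2% of those tested, against 5 of these 10. Over all genes 39.6% were higher and 40.6% lower in St, and of the 10 genes 1 was higher and 4 lower. The median absolute log2 fold change was 0.244 for the 10 genes and 0.440 for all tested. In whole-region RNA, fewer cells of a type and less RNA per cell cannot be told apart.

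Angpt1 was 3.17-fold higher in Ce, at 536 to 883 normalized counts in Ce and 182 to 302 in St, without overlap (log2 fold change St minus Ce -1.66, SE 0.09, limma adjusted P-value 9.9e-12). Hif1a was 2.36-fold higher in Ce, at 9283 to 11849 against 3614 to 4589, also without overlap (limma adjusted P-value 1.5e-13). Angpt2 was 1.60-fold higher in Ce, at 85.8 to 116 against 44.5 to 81.7, again without overlap (limma adjusted P-value 5.3e-05). Regions were free of overlap in 55.2% of all genes tested, and in 3 of these 10. Vegfa was 1.27-fold higher in Ce (limma adjusted P-value 8.4e-05), with 1 Ce library, CeHi replicate 3 at 4310, inside the St range of 3397 to 4614.

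Kdr was 1.25-fold higher in St (log2 fold change 0.32, SE 0.12, limma adjusted P-value 0.0193), at 346 to 533 normalized counts in Ce and 371 to 661 in St with broad overlap. It no longer passed without StHi replicate 1 (limma adjusted P-value 0.0630). Flt1, the decoy receptor, gave 0.17 (95% interval -0.04 to 0.38, limma adjusted P-value 0.120), and passed without StCo replicate 2 (0.0139), without StHi replicate 0 (0.0456) or with sample quality weights (0.0397). Pecam1 gave 0.11 (95% interval -0.02 to 0.23) and passed without StCo replicate 2 (limma adjusted P-value 0.0496) or without StHi replicate 2 (0.0386), and Tek gave -0.11 (95% interval -0.28 to 0.05) and passed without StHi replicate 1 (0.0218). With other libraries left out, limma adjusted P-values rose as high as 0.283 for Flt1, 0.341 for Pecam1 and 0.476 for Tek. Cldn5 gave 0.04 (95% interval -0.12 to 0.21) and Slc2a1 0.01 (-0.11 to 0.14), so a region difference above 1.16-fold for Cldn5 or 1.10-fold for Slc2a1, St over Ce, lay outside the intervals.

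The sum of choroid plexus markers reached higher values in Ce (1493 to 117675) than in St (1438 to 18735), but the regions overlapped. The sum of 8 meningeal fibroblast markers was higher in Ce without overlap (7277 to 14835 in Ce, 1922 to 2986 in St). With only the 8 libraries whose choroid plexus sum was at most 10000, of which 2 were Ce, each Ce group kept 1 library and was assumed to vary like the St groups. In that fit Angpt1 (-1.86), Hif1a (-1.42) and Vegfa (-0.33) passed. Angpt2 (-0.42, limma adjusted P-value 0.0899) and Kdr (0.37, limma adjusted P-value 0.157) did not, so that 3 of the 10 genes passed in place of 5. In the 2 Ce libraries with the lowest sums, CeCo replicate 1 and CeHi replicate 0, Angpt1 was at 710 and 883 and Hif1a at 11849 and 10267. The part of meningeal tissue in these differences was not tested. Globin and other erythrocyte markers, 4 in the table, summed to 1134 to 4416 in Ce and 602 to 1409 in St, and their part in the differences was not tested either.

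Ratios within a library compared ligand with receptor and antagonist with agonist, by exact permutation of region within line or of line within region (2450 arrangements, two-sided, adjusted over 8 tests). The Vegfa to Kdr ratio averaged 13.0 (SD 1.01) in CeCo and 10.7 (SD 1.12) in CeHi, and 7.38 (SD 1.49) in StCo and 7.67 (SD 1.58) in StHi. It was 1.58-fold higher in Ce (exact permutation P-value 0.000408, the smallest these arrangements can give, adjusted 0.00327), with St libraries at 6.25 to 9.47 and Ce libraries at 9.49 to 14.1. The Angpt2 to Angpt1 ratio averaged 0.163 (SD 0.0258) in CeCo and 0.136 (SD 0.0293) in CeHi, and 0.229 (SD 0.0651) in StCo and 0.379 (SD 0.0458) in StHi. It was 1.98-fold higher in St (exact permutation P-value 0.00163, adjusted 0.00653), the agonist differing more between regions (log2 -1.66) than the antagonist (-0.68).

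Neither ratio passed by line, in a test that averages over the regions, so that line differences of opposite sign cancel in it. For Angpt2 to Angpt1 the log2 line difference, Hi minus Co, was -0.28 in Ce and 0.76 in St, and the mean over regions, 0.24, gave an exact permutation P-value of 0.308 (adjusted 0.492). The 3 StHi libraries (0.327 to 0.412) lay above the 4 StCo libraries (0.148 to 0.302), while CeHi (0.0971 to 0.167) and CeCo (0.126 to 0.185) overlapped. The line difference of this ratio within St alone, and its difference between regions, were not tested. The Vegfa to Kdr line difference was -0.28 in Ce and 0.06 in St (adjusted exact permutation P-value 0.496). Flt1 to Kdr, decoy to signalling receptor, was 4.06 ± 0.534, 3.65 ± 0.401, 3.51 ± 0.196 and 3.39 ± 0.207 in that order of groups, and neither its region (adjusted exact permutation P-value 0.159) nor its line difference (0.330) passed. Slc2a1 to Cldn5 was between 2.88 and 3.12 in the 4 group means, and neither difference passed (adjusted exact permutation P-values 0.677 for line and 0.787 for region).

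**Figure D3:**
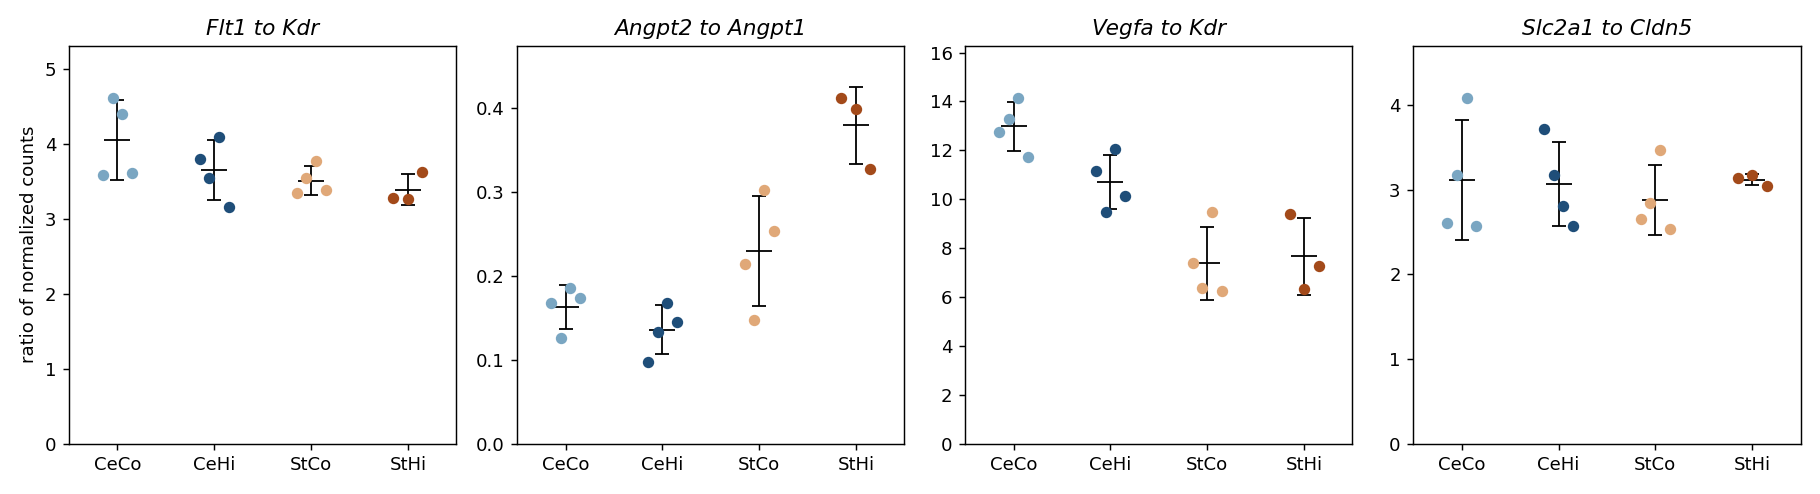
Ratios of normalized counts within each library (linear axes from 0), points for libraries and bars for mean and SD, by group. Vegfa to Kdr is at 9.49 or more in all Ce libraries and at 9.47 or less in all St libraries, and Angpt2 to Angpt1 is highest in the 3 StHi libraries.

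The endothelial genes deviated together in several libraries of both regions, among them CeCo replicates 2 and 3 and StCo replicate 2. They did not in every library, and CeHi replicate 3 had a log2 deviation of -0.30 for Flt1 and 0.22 for Cldn5. As a description over 15 libraries, after subtraction of each group mean, the 10 pairs among Flt1, Kdr, Tek, Pecam1 and Cldn5 had Pearson r between 0.379 and 0.831, with a median of 0.634. Over all 45 pairs of the 10 genes the median was 0.243. Flt1 and Kdr had the highest value (r 0.831, Spearman 0.854, and r 0.786 without the 2 libraries farthest from the median). Kdr and Pecam1 gave 0.809 and Flt1 and Tek 0.753. Vegfa went with Pecam1 (0.723), while its r with Slc2a1 was -0.53 and with Hif1a -0.50. The values of a pair share library and scaling.

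The largest deviations of Flt1, Kdr, Tek, Pecam1 and Cldn5 were each in StCo replicate 2 or StHi replicate 1. StCo replicate 2 was the lowest of its group for Flt1, Kdr, Tek, Pecam1 and Cldn5, and for 20 of 31 endothelial markers. StHi replicate 0 was the lowest of its 3 for 24 of the 31 markers and StHi replicate 1 the highest for 24. The summed level of the 31 markers was 22352 and 27137 normalized counts in these 2 StHi libraries, 24520 in StCo replicate 2 and 26077 to 29836 in the other StCo libraries, against 23385 to 25483 across the 8 Ce libraries. These are the libraries whose removal changed the outcome for Angpt1, Tek, Kdr and Flt1 above. How often they were the lowest or highest over all genes was not counted, so the marker counts cannot be read as particular to endothelium. StHi replicate 0 also had the fewest fragments of the 15 libraries (32909267).

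**Figure D4:**
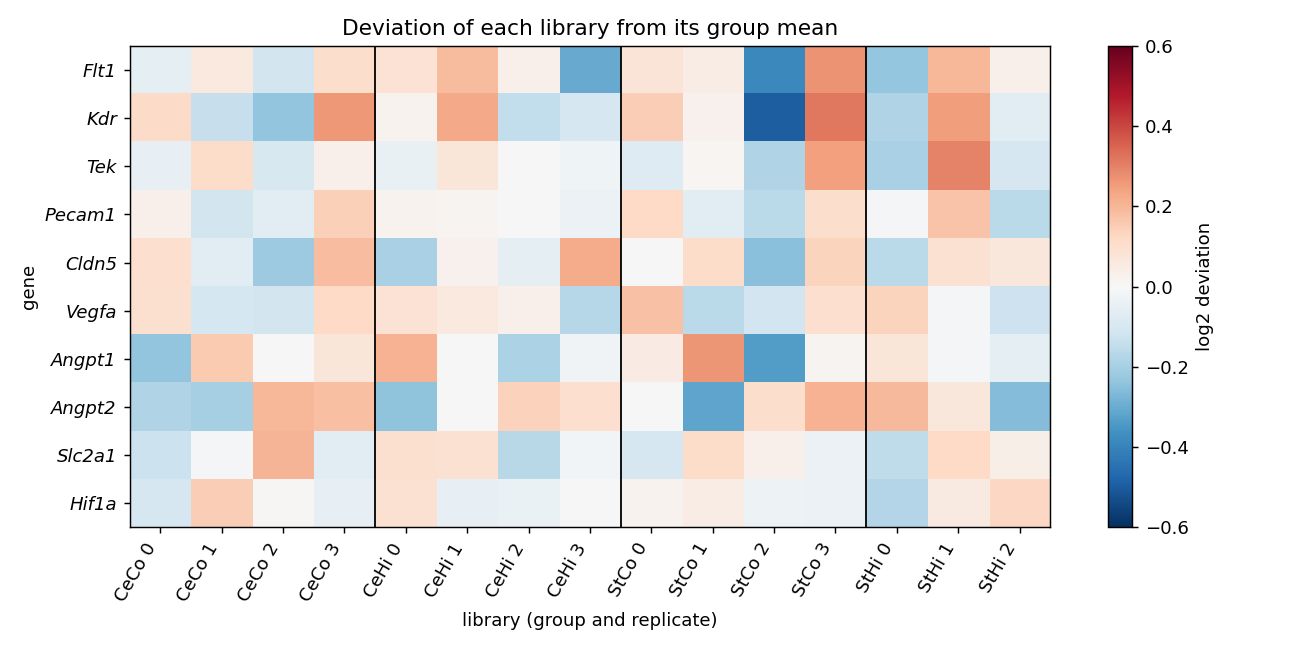
Deviation of each library from its group mean on the log2 scale (colour, from -0.6 to 0.6), genes in rows and the 15 libraries in columns, with black lines between the groups. The upper 5 rows, the endothelial genes, deviate in the same direction within several libraries of both regions. Among them are CeCo 2 and StCo 2 (below their group means) and CeCo 3 and StHi 1 (above).

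By the same measure, the genes whose within-group pattern was most like each member were found over 15213 genes. For Vegfa these were Arhgef37 (r 0.914), Ndrg1 (0.906) and Gm98 (0.900). For Kdr they were Sike1 (0.960), Igfbp5 (0.951) and Papd4 (0.943), and for Flt1 they were Kitl (0.904), Thsd7a (0.902) and Cdk19 (0.894). For Tek they were D2Ertd750e (0.911), Lef1 (0.906) and Anp32b (0.899), with 0.783, 0.760 and 0.796 without the 2 libraries farthest from the median. The first was 4930485B16Rik for Slc2a1 (0.875) and Hspa13 for Hif1a (0.904). Each is a maximum over all these genes in 15 libraries, and no chance level was set for it. For Angpt1 they included Gmds (0.894).

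Other genes of the same pathways were counted in lists. Of 10 VEGF ligands and receptors, none passed by line in either region (5.94% and 2.66% of all genes did), and 7 passed by region, 70% against 80.2% of all genes. Of these 4 were higher in St, namely Kdr, the coreceptors Nrp1 (3.32-fold) and Nrp2 (3.73-fold) and Figf, encoding VEGF-D (4.47-fold). The 3 lower in St were Vegfa, Vegfb (1.07-fold higher in Ce) and Vegfc, a lymphangiogenic ligand (3.54-fold higher in Ce). Neuropilins are also receptors of neurons, for semaphorins. The median region log2 fold change of the list was 0.19, against -0.01 over all genes.

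Of 6 angiopoietin and Tie genes, 5 were tested, Angpt4 being at or under 3 fragments in every library of 3 of the 4 groups. Angpt1 and Angpt2 were lower in St, and Tek, Tie1 (log2 fold change 0.05) and the phosphatase gene Ptprb (log2 fold change 0.12), which dampens Tie2, did not pass by region. None passed by line, where 5.94% of all genes passed in Ce and 2.66% in St.

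Of 31 endothelial markers, 1 passed by line in St and 0 in Ce, where 2.66% and 5.94% of all genes passed. The 1 in St was Cd34, a surface sialomucin of endothelium and progenitors. It was at 1440 ± 188 normalized counts in StCo and 888 ± 184 in StHi (log2 fold change -0.71, SE 0.14, limma adjusted P-value 0.00941). It no longer passed without StHi replicate 1 (limma adjusted P-value 0.0646) or without StHi replicate 2 (0.0584). In Ce, Cd34 was at 631 ± 81.3 and 535 ± 65.4 (limma adjusted P-value 0.330). By region 14 of the 31 passed, 45.2% against 80.2% of all genes, with 11 higher in St and 3 lower. The higher ones included Mfsd2a, the barrier lipid transporter (log2 fold change 1.07), Slco1c1, a thyroid hormone transporter also in astrocytes (1.93-fold), and Egfl7 (1.85-fold). The lower ones were Ocln, Pltp and Foxq1, at 2.81-fold, 2.60-fold and 1.36-fold higher in Ce.

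Of 12 mural cell markers, Atp13a5, a pericyte ATPase gene, was lower in CeHi (335 ± 13.0) than in CeCo (448 ± 38.9 normalized counts, log2 fold change -0.42, limma adjusted P-value 0.00681) and none passed in St, that is 1 of 12 in Ce where 5.94% of all genes passed. By region 7 were higher and 2 lower in St, 75% against 80.2% of all genes, with a median log2 fold change of 0.26. Of 8 meningeal fibroblast markers all 8 were lower in St and 1, the collagen gene Col3a1, was lower in CeHi (log2 fold change -0.86, limma adjusted P-value 0.00294). Of 8 choroid plexus markers 5 were lower in St, and of 6 astrocyte markers 4 were lower and 1 higher. The 3 erythrocyte markers tested were all lower in St. None of the choroid plexus, erythrocyte or astrocyte markers passed by line.

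Of 10 genes of the hypoxia-inducible factor system, 2 were lower in CeHi and 1 was lower in StHi, where 5.94% and 2.66% of all genes passed. Of the 2 in Ce, Arnt was lost in 12 and Epas1 in 5 of the 15 fits without 1 library. Epas1, encoding the HIF-2 alpha subunit abundant in endothelium, was at 5228 ± 228 normalized counts in CeCo and 4440 ± 339 in CeHi (log2 fold change -0.24, limma adjusted P-value 0.0376). Arnt, encoding the shared beta subunit, was at 3033 ± 199 and 2644 ± 170 (log2 fold change -0.20, limma adjusted P-value 0.0454). Hif1an, whose product hydroxylates and inhibits HIF alpha subunits, was at 2955 ± 112 in StCo and 2398 ± 23.4 in StHi (log2 fold change -0.31, limma adjusted P-value 0.00295). In Ce, Hif1an gave -0.17 (limma adjusted P-value 0.0528), and none of the 10 genes passed for the interaction.

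Between regions the subunits went opposite ways. Hif1a and Arnt were lower in St (Arnt 1.73-fold higher in Ce), and so was Hif1an (1.20-fold higher in Ce). Arnt2, the neuronal paralogue of Arnt, was 4.71-fold higher in St, and Epas1 (1.22-fold), Egln3 (1.65-fold) and Vhl (1.31-fold) were higher as well. Egln3 is a prolyl hydroxylase and Vhl the ubiquitin ligase subunit that together mark HIF alpha for degradation.

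Of 24 hypoxia-inducible genes, 1 passed by line in Ce and 2 in St, against the 5.94% and 2.66% of all genes. Bhlhe40, a clock-linked repressor, was lower in CeHi (log2 fold change -0.25, limma adjusted P-value 0.0469). In St, Pdk1, which restrains pyruvate entry into mitochondria, was at 2140 ± 161 normalized counts in StCo and 1545 ± 125 in StHi (log2 fold change -0.48, SE 0.07, limma adjusted P-value 0.000826), and Ddit4, an inhibitor of mTOR signalling, was higher in StHi (0.35, limma adjusted P-value 0.0439). The hypoxia-inducible members Vegfa and Slc2a1 passed in neither region. Pdk1 and Hif1an passed in all 11 alternatives and with each library left out, whereas Arnt and Bhlhe40 were each lost in 4 of 11 alternatives and in 12 and 11 of the 15 fits without 1 library. By region 15 of the 24 passed, 62.5% against 80.2% of all genes. Of these 12 were higher in St, including Slc16a3, a lactate exporter (5.95-fold), and Pfkfb3, a glycolytic activator (2.28-fold). The 3 lower were Vegfa, Hk2 (5.52-fold higher in Ce) and Car9 (13.6-fold higher in Ce).

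On GRCm38 with the GENCODE annotation, 6 of the 10 genes overlap no other gene. Angpt2 (chr8:18690263-18741562, minus strand) lies within Mcph1, which is on the plus strand. Slc2a1 (chr4:119108711-119137983) overlaps 3 other genes, Hif1a (chr12:73901375-73947530) 2 and Angpt1 (chr15:42424723-42676977) 1. Whether strand was used in counting is not given in the sources used here, so for these 4 genes a share of the fragments may belong to the overlapping gene.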

How the data were processed

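RNA of whole cerebellum and striatum was sequenced by the authors as paired-end reads, aligned to GRCm38 with Tophat2 and normalized for library size with Cuffnorm 2.2.1. The annotation used for counting is not given in the sources used here. The deposited values are a gene signal, fragments per gene divided by a factor per library. Whole fragments were recovered from the steps of this signal (99.6% to 99.8% of low values were whole, to within 0.1 of a step). Of 26628 genes, 15213 had a CPM of at least 1 in 3 samples. After TMM scaling with edgeR 4.0.16 log2(value + 1) was taken, and group means were compared with limma 3.58.1 in R 4.3.3 (trend, robust), with Benjamini-Hochberg adjustment over 15213 genes. Fold changes are on that scale. The limma and permutation tests were two-sided, and the fit was tested on simulated data. P-values measure the spread between mice of 1 line each, and fragment counts cover counting error only. Group labels came from sample titles.

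The quasi-likelihood test of edgeR, which the study's methods name, and DESeq2 1.42.0 were run as alternatives on recovered fragments, because the deposited values are not whole counts. Other alternatives were a pseudocount of 0.1, other filters and scalings, quality weights, the replicate block, each region alone and each library left out. A fit without libraries rich in choroid plexus markers was added after the marker sums were seen. The genes and lists were chosen with earlier results of these data known. Named from the lists were up to 3 genes per list and contrast with the smallest adjusted P-value, and others were named after their values were seen. Lists were of VEGF, angiopoietin and Tie, endothelial, mural, HIF system, hypoxia-inducible, meningeal fibroblast, choroid plexus, erythrocyte, astrocyte, cerebellum and striatum genes.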

Additional observations from a re-analysis of the deposited data

How the results depend on the processing

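None of the 10 genes passed between CeHi and CeCo in any alternative. In St the count went from 0 to 1 with sample quality weights (Angpt1) and was 0 to 1 with 1 library left out, and for the interaction it went from 0 to 1 with DESeq2 and with quality weights (Angpt1) and was 0 to 1 with 1 library left out. By region the count was 5 to 7 with 1 library left out, 6 with quality weights (Flt1 added), 3 with low choroid plexus sums, where fewer libraries entered, and 4 at a filter of a CPM of 5, which removed Angpt2. Over all genes, line calls in Ce were 903, and 1389 with DESeq2. Line calls in St were 405, with 709 by DESeq2, 740 with quality weights and 269 to 468 with 1 library left out, the lowest without StCo replicate 1 or StHi replicate 1 or 2. Interaction calls were 81, with 277 by DESeq2, 182 with quality weights and 46 to 117 with 1 library left out. The cause was not tested.

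The replicate block, with the label number as a factor or within line, left the counts of called members at 0, 0, 0 and 5. Same-numbered CeCo and StCo libraries had residual r of 0.171 to 0.278, and those of CeHi and StHi -0.08 to 0.05, so the numbers were not treated as pairs. Every StCo library went best with its own number, as a hint from the data.

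Some values near 0 that did not pass changed sign. Flt1 in Ce was 0.000868 with DESeq2 and 0.0399 with quality weights, Cldn5 in Ce -0.0561 with quality weights, Angpt2 in Ce 0.0001002 without a filter, and the Flt1 interaction -0.0082 with quality weights. The Kdr interaction was 0.00189 and the Slc2a1 interaction -0.0103 with the replicate block as a factor, and the Slc2a1 interaction was -0.0016 without a filter. Slc2a1 by region was -0.0098 without a filter and -0.0648 with low choroid plexus sums. With 1 library left out, log2 values that changed sign had these ranges. For CeHi minus CeCo the ranges were Slc2a1 -0.0284 to 0.0794, Angpt2 -0.0700 to 0.073, Tek -0.0409 to 0.0324, Flt1 -0.0698 to 0.0922, Cldn5 -0.0519 to 0.0873, Pecam1 -0.0585 to 0.0233. For StHi minus StCo the ranges were Slc2a1 -0.0462 to 0.0891, Flt1 -0.0924 to 0.15, Kdr -0.0768 to 0.19. For interaction the ranges were Slc2a1 -0.059 to 0.0787, Kdr -0.22 to 0.0542, Flt1 -0.0816 to 0.16, Hif1a -0.0355 to 0.11. For St minus Ce the range was Slc2a1 -0.0199 to 0.0515. The ratio Slc2a1 to Cldn5 by region ranged over -0.0772 to 0.0392, and Flt1 to Kdr by region over -0.18 to -0.12, passing without CeHi replicate 3 (adjusted exact permutation P-value 0.0457).

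Among the called genes of the lists, Ddit4 was lost in 2 and Epas1 in 1 of 11 alternatives, and in 7 and 5 of the 15 fits without 1 library. Cbln1 in St was lost in 1 and 3, Cd34 in 0 and 2, and Atp13a5 and Col3a1 in 0 and 0. Angpt2 had the fewest fragments of the 10 genes, 45 in its lowest library.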
